A study of Mus musculus with 16 samples.

Results

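Zfpl1, Rabggta, Vmp1, Lxn, Thoc1 and Slc7a6os are 6 genes whose RNA was slightly higher in mammary tumours of obese mice given anti-PD-1 than in those given IgG2a, and most of which varied little between tumours of a group. They are 6 of 16154 genes tested and were chosen by the p-values of the anti-PD-1 comparison, near the top of which they stood. Among protein-coding genes of moderate or high level that were higher under anti-PD-1, they hold ranks 1, 2, 4, 5, 6 and 7. The values of that comparison are therefore a description below, with no test. The gene at rank 3, Mmp13, was estimated at a log2 fold change of 1.30 ± 0.37 (SE). Just outside the set, Lrrc15 at rank 8 was estimated at 1.34 ± 0.42 and Ttc4 at rank 11 at 0.27 ± 0.09.

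The tumours were grown from E0771-luciferase cells, a mammary carcinoma line of C57BL/6 mice marked with luciferase. Per mouse, 250000 cells were placed in mammary gland 4 of female C57BL/6J mice. From 8 to 26 weeks of age the mice ate a high-fat diet, in which fat supplied 60% of the energy. From day 3 after the cells were injected until day 21, 8 mice received 200 ug of anti-PD-1 every 3 days and 8 mice received IgG2a, an isotype control antibody, on the same schedule. All tumours come from 1 transplanted line in hosts with their own immune cells, every mouse was on the high-fat diet, and each tumour has its own animal number. Poly(A) RNA was sequenced without strand information, and the deposited estimated counts gave 59036535 to 82591064 reads per tumour.

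There were 3 tumours that differed from the rest in measures that touch the results below. Anti-PD-1 replicate 6 had 38934 transcripts with at least 1 read, against 47952 to 55427 in the other 15. IgG2a replicate 7 had the highest leukocyte, fibroblast, endothelial, adipocyte and erythroid marker scores of all 16 and the lowest proliferation score, and IgG2a replicate 3 had the highest skeletal muscle score. Epithelial markers, which bulk RNA cannot assign to the line or to the mammary gland of the host, were mostly low. Of 9 epithelial markers, Krt8 had 33.4 to 49.4 TPM, reads scaled for transcript length and library, under anti-PD-1, and 33.8 to 75.9 TPM under IgG2a, whereas the median of Epcam was 1.40 TPM under anti-PD-1 and 0.858 TPM under IgG2a. The summed epithelial level peaked at 456 TPM in IgG2a replicate 7, against 37.1 to 125 TPM in all 8 anti-PD-1 tumours. Tumour purity itself was not measured, and in bulk RNA fewer cells of a type and less RNA per cell cannot be told apart.

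The 6 genes belong to basic cell machinery rather than to the immune response. Zfpl1 encodes a membrane protein of the cis-Golgi that binds the matrix protein GM130, and Rabggta encodes the alpha subunit of Rab geranylgeranyl transferase, which attaches lipid tails to Rab GTPases so that they can sit on membranes. Vmp1 is a multi-pass protein of the endoplasmic reticulum needed to form autophagosomes, the vesicles that carry cell contents to the lysosome. Lxn encodes latexin, an inhibitor of A-type carboxypeptidases that in mice limits the number of haematopoietic stem cells. Thoc1 is a subunit of the THO complex, which packages new messenger RNA for export from the nucleus, and Slc7a6os is the homologue of yeast Iwr1, which carries RNA polymerase II into the nucleus.

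In each of the 6 genes, all 8 anti-PD-1 tumours lay above the median of the IgG2a tumours, a pattern held by 4.74% of all genes tested, and in none of the 6 did the groups separate fully, which 0.00619% of genes did in this direction. Between 5 and 7 of the 8 anti-PD-1 tumours exceeded every IgG2a tumour. At least 5 did so in 1.45% of all genes, at least 6 in 0.446% and at least 7 in 0.099%. By edgeR's quasi-likelihood test with Benjamini-Hochberg adjustment, 0% of the 16154 genes passed an adjusted p of 0.05. At an unadjusted p under 0.05, 560 genes (3.47%) were higher and 1276 (7.9%) lower. DESeq2 called 4 of 27933 genes (0.0143%), none of them among the 6, and limma-voom called 0. Since the rule used this contrast, nothing is read from the standing of the 6 against these shares.

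**Figure D1:**
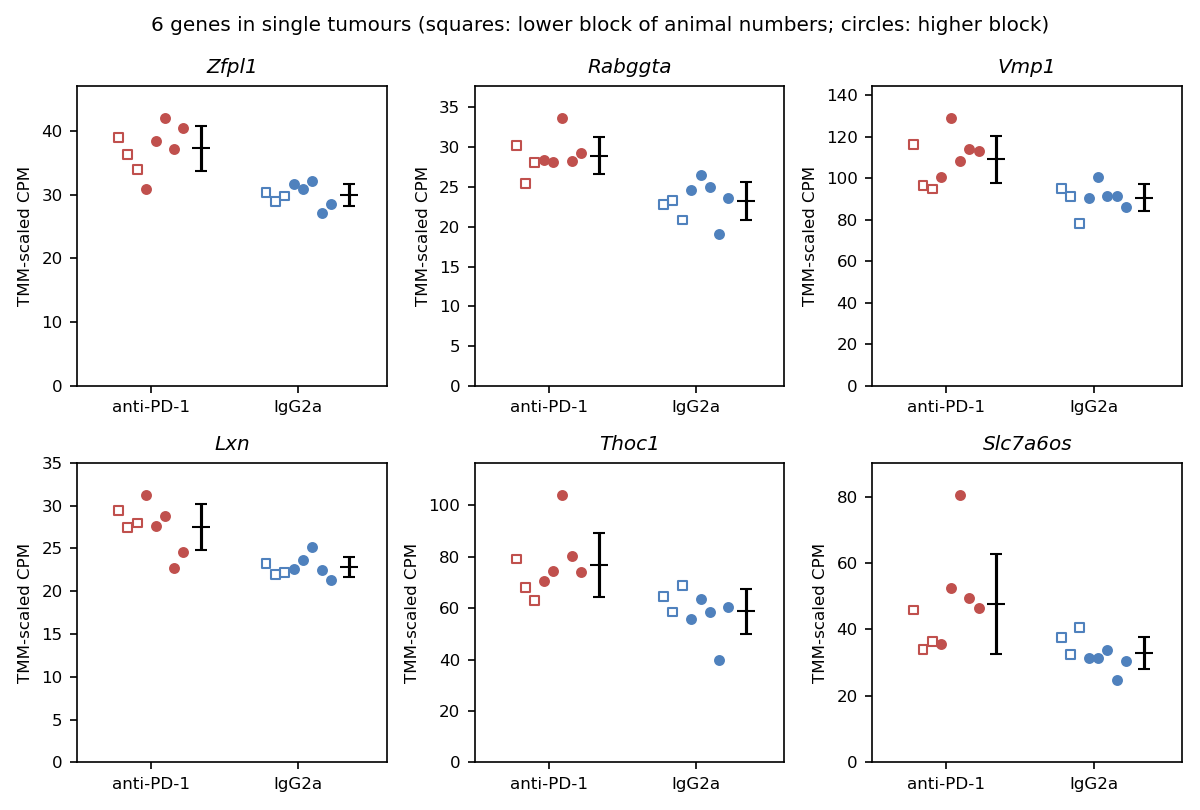
Reads scaled by library size and TMM factors (CPM, vertical axes starting at 0) of the 6 genes in each of 8 anti-PD-1 and 8 IgG2a tumours; squares are the lower block of animal numbers, circles the higher block, and black bars are the mean and SD. Every anti-PD-1 cloud sits above the IgG2a cloud with some overlap. In Thoc1 and Slc7a6os 1 anti-PD-1 tumour, at 104 and 80.6 CPM, lies far above the others in CPM, but not in TPM.

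Zfpl1 lies on chromosome 19 (GRCm38, 6080762 to 6084956, minus strand). Its level in CPM, reads scaled by library size and TMM factors, was lowest at 30.9, had a median of 37.8 and reached 42.0 in anti-PD-1 tumours, against a lowest of 27.1, a median of 30.1 and a highest of 32.1 CPM in IgG2a tumours. Only anti-PD-1 replicate 4 lay within the IgG2a range, so that 7 of 8 anti-PD-1 tumours were above all IgG2a tumours. The means were 37.3 ± 3.54 CPM in anti-PD-1 tumours against 29.9 ± 1.69 CPM in IgG2a tumours (SD, 8 tumours each), and the log2 fold change was 0.32 ± 0.08 (SE) with a 95% interval of 0.16 to 0.47, or 24.5% more.

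Zfpl1 starts 27 bases from Cdca5, a gene of sister chromatid cohesion that is transcribed in the other direction, so that both are read from 1 short shared stretch. The whole stretch is shown because it holds both starts. It reaches 30 bases into each transcript (chr19:6084927-6085012, GRCm38.p6, minus strand, RefSeq), and capitals mark CCGGAAG, the core of an ETS factor motif, which 8.86% of 32817 mouse promoter windows hold on either strand. Here the core lies within the Zfpl1 transcript, not between the 2 starts.
Zfpl1/Cdca5: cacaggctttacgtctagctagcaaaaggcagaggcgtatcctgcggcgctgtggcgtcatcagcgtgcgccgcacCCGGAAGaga
Cdca5 had a mean of 48.0 ± 3.14 CPM in anti-PD-1 tumours against 44 ± 13 CPM in IgG2a tumours (SD, 8 tumours each), and its log2 fold change was 0.13 ± 0.20 (SE, edgeR adjusted p = 0.761). With group means removed, the levels of Zfpl1 and Cdca5 had a Pearson r of 0.28 over 16 tumours (within-group permutation p = 0.163, adjusted 0.245 over 3 such pairs; Spearman rho 0.035, p = 0.879), and 0.32 without the 2 tumours farthest from the median.

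Of 9 Zfpl1 transcripts in the tables, the full-length protein-coding Zfpl1-201 carried 71.2 ± 8.97% of the gene's reads in anti-PD-1 tumours and 66.5 ± 7.01% in IgG2a tumours (SD, 8 tumours each). Its level averaged 27.0 ± 2.68 TPM in anti-PD-1 tumours and 22 ± 1.84 TPM in IgG2a tumours, and 5 of the 8 anti-PD-1 tumours exceeded all IgG2a tumours. A shorter coding transcript of 706 bases averaged 8.01 ± 3.62 TPM under anti-PD-1 and 9.42 ± 3.55 TPM under IgG2a, and Zfpl1-208 averaged 7.74 ± 4.18 and 6.37 ± 4.09 TPM in the same order. Under anti-PD-1 the full-length form had a higher mean, and the form of 706 bases a lower one, than under IgG2a. In anti-PD-1 replicate 6, the tumour with fewest transcripts detected, Zfpl1-201 held 90.3% of the reads, more than in any other tumour.

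Rabggta lies on chromosome 14 (55715416 to 55722263, minus strand). It had a lowest level of 25.4, a median of 28.3 and a highest of 33.7 CPM in anti-PD-1 tumours, against 19.1, 23.4 and 26.5 CPM in IgG2a tumours. The lowest anti-PD-1 tumour, replicate 2, lay inside the IgG2a range, and IgG2a replicate 5 was the only IgG2a tumour above it. Means of 28.9 ± 2.34 CPM in anti-PD-1 tumours against 23.2 ± 2.36 CPM in IgG2a tumours (SD, 8 tumours each) gave a log2 fold change of 0.32 ± 0.08 (SE, 95% interval 0.14 to 0.49).

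Both main Rabggta transcripts encode protein, with similar shares in both groups. Rabggta-202 carried 67.2 ± 7.87% of the gene's reads in anti-PD-1 tumours and 69.3 ± 8.08% in IgG2a tumours (SD, 8 tumours each), and Rabggta-201 carried 29.8 ± 7.30% and 29 ± 8.91% in that order. Rabggta-202 averaged 12.8 ± 2.39 TPM in anti-PD-1 tumours and 11.5 ± 2.59 TPM in IgG2a tumours, with 7 of 8 anti-PD-1 tumours above the IgG2a median and 0 above the highest IgG2a tumour. Its lowest value, 7.28 TPM, was in anti-PD-1 replicate 6. That tumour had the highest gene total in CPM, 33.7, but the lowest of the anti-PD-1 tumours in TPM, 12.3.

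Vmp1 spans chromosome 11 from 86583865 to 86683836 on the minus strand and was the most abundant of the 6 by CPM. Its level was 94.9 at the lowest, 111 at the median and 129 CPM at the highest in anti-PD-1 tumours, against 78.3, 91.4 and 101 CPM in IgG2a tumours. Anti-PD-1 replicates 2, 3 and 4 lay within the IgG2a range and the other 5 lay above it. The means were 109 ± 11.5 CPM in anti-PD-1 tumours against 90.7 ± 6.50 CPM in IgG2a tumours (SD, 8 tumours each), and the log2 fold change was 0.27 ± 0.08 (SE, 95% interval 0.10 to 0.43).

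Vmp1 is also the host of miR-21, a microRNA abundant in many tumours. The hairpin of Mir21a lies whole within a Vmp1 exon (chr11:86584067-86584158, 92 bases, minus strand), and its reads were 0 in every tumour in these tables of poly(A) RNA, which do not measure the mature form. The arms are shown as what the transcript encodes (RefSeq, GRCm38.p6), with the seed, bases 2 to 8, in capitals.
mmu-miR-21a-5p: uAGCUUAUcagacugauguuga
mmu-miR-21a-3p: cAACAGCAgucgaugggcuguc
On its upstream side, Vmp1 starts 149 bases from Ptrh2, a gene for a mitochondrial peptidyl-tRNA hydrolase read in the other direction. Their shared stretch, with 30 bases of each transcript (chr11:86683807-86684014, minus strand), also holds CCGGAAG, in capitals.
Vmp1/Ptrh2: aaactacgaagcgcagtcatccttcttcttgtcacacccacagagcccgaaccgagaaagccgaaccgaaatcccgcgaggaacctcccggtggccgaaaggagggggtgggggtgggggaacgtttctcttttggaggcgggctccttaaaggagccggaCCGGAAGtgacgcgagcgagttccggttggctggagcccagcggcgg
Ptrh2 had a mean of 24.8 ± 12.1 CPM in anti-PD-1 tumours against 19.8 ± 3.52 CPM in IgG2a tumours (SD, 8 tumours each), and its log2 fold change was 0.32 ± 0.21 (SE, edgeR adjusted p = 0.471). With the length index described below as a covariate it was -0.032. Across tumours, with group means removed, Vmp1 and Ptrh2 had a Pearson r of -0.13 (within-group permutation p = 0.724, adjusted 0.724; Spearman rho -0.24, p = 0.380) and 0.17 without the 2 tumours farthest from the median.

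The 8 Vmp1 transcripts differ widely in length, and so in how reads and TPM divide among them. The full coding transcript Vmp1-201, of 2787 bases, carried 52.1 ± 4.13% of the gene's reads in anti-PD-1 tumours and 53.9 ± 3.67% in IgG2a tumours (SD, 8 tumours each). Its level was 24.0 ± 4.24 TPM in anti-PD-1 tumours and 22.2 ± 2.33 TPM in IgG2a tumours, and 14.6 TPM, the lowest of all, in anti-PD-1 replicate 6. In that tumour the whole gene was also lowest in TPM, at 81.9, though it had 108 CPM. The noncoding Vmp1-202, 749 bases from the 3′ part of the gene, averaged 55.6 ± 10.5 TPM under anti-PD-1 and 42.4 ± 4.30 TPM under IgG2a, and all 8 anti-PD-1 tumours were above the IgG2a median.

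Vmp1-204 and Vmp1-205, short transcripts from the 5′ part of the gene, had lower means under anti-PD-1. Vmp1-204, a noncoding transcript of 420 bases, had 0, 4.53, 9.11, 5.79, 5.83, 0.357, 0.244 and 1.08 TPM in anti-PD-1 replicates 1 to 8, a mean of 3.37 ± 3.41 TPM, against 8.88 ± 5.74 TPM in IgG2a (SD, 8 tumours each). The groups overlapped, since IgG2a replicates 3 and 7 had 1.06 and 2.94 TPM. The coding transcript Vmp1-205, of 326 bases, averaged 11.2 ± 8.52 TPM under anti-PD-1 and 16.6 ± 7.23 TPM under IgG2a.

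Lxn lies on chromosome 3 (67457998 to 67463926, minus strand). Its lowest level was 22.7, its median 27.8 and its highest 31.3 CPM in anti-PD-1 tumours, against 21.3, 22.6 and 25.2 CPM in IgG2a tumours. Anti-PD-1 replicates 7 and 8 lay within the IgG2a range and the other 6 lay above it. The means were 27.5 ± 2.69 CPM in anti-PD-1 tumours against 22.8 ± 1.19 CPM in IgG2a tumours (SD, 8 tumours each), and the log2 fold change was 0.27 ± 0.08 (SE, 95% interval 0.10 to 0.43).

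The Lxn total was not of 1 kind in all tumours. The coding transcript Lxn-201 held 47.4 to 99.8% of the gene's reads under anti-PD-1 and 85 to 99.9% under IgG2a. In anti-PD-1 replicates 1, 6 and 7 and in IgG2a replicate 3 most of the rest was Lxn-203, an annotated transcript with a retained intron, while Lxn-202, another such transcript, held at most 1.03% in any anti-PD-1 tumour and 2.33% in any IgG2a tumour. Lxn-203 had 17.2 TPM in anti-PD-1 replicate 6, 10.8 TPM in replicate 1, 3.12 TPM in replicate 7 and at most 0.317 TPM in the other 5 anti-PD-1 tumours, against 5.05 TPM in IgG2a replicate 3 and at most 0.768 TPM in the other 7 IgG2a tumours. Lxn-201 itself had 10.8 TPM in anti-PD-1 replicate 6, the lowest of all tumours, and averaged 31.2 ± 9.67 TPM under anti-PD-1 and 29.7 ± 4.15 TPM under IgG2a (SD, 8 tumours each). On the most abundant transcript alone, the log2 fold change of Lxn was 0.13 ± 0.13 (SE). Lxn lies inside the span of Gfm1, a mitochondrial translation factor on the other strand, but shares 63 exon bases with it, 4.18% of its own. Gfm1 had a log2 fold change of 0.07 ± 0.11 (SE, edgeR adjusted p = 0.758).

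Thoc1 lies on chromosome 18 (9957906 to 9995489, plus strand) and has 1 transcript in the tables. Its level was 63.1 at the lowest, 74.3 at the median and 104 CPM at the highest in anti-PD-1 tumours, against 40.0, 59.6 and 68.7 CPM in IgG2a tumours. Anti-PD-1 replicates 2 and 3 lay within the IgG2a range and the other 6 lay above it. The means were 76.8 ± 12.4 CPM in anti-PD-1 tumours against 58.8 ± 8.64 CPM in IgG2a tumours (SD, 8 tumours each), and the log2 fold change was 0.39 ± 0.12 (SE, 95% interval 0.14 to 0.63).

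The extremes of Thoc1 in CPM were in tumours already set apart, 104 CPM in anti-PD-1 replicate 6 and 40.0 CPM in IgG2a replicate 7. In TPM the high extreme was absent. Anti-PD-1 replicate 6 had 19.7 TPM, below the anti-PD-1 mean of 22.5 TPM, while IgG2a replicate 7 was again lowest, at 12.2 TPM. With 1 transcript of the same length in all tumours, CPM and TPM of Thoc1 differ only by a scale per tumour. Zfpl1 and Rabggta were likewise highest of the anti-PD-1 group in CPM in replicate 6, but lowest in TPM, at 29.1 and 12.3 TPM. TPM thus adds no separate evidence on this extreme. Without anti-PD-1 replicate 6 the log2 fold change of Thoc1 was 0.31, and without that tumour and IgG2a replicates 3 and 7 it was 0.27 ± 0.07 (SE). Its 3′ end overlaps Usp14, a deubiquitinase of the proteasome on the other strand. They share 2169 exon bases, 52.5% of those of Thoc1, and reads of both genes cannot be told apart there. Usp14 had a mean of 140.1 ± 7.93 CPM in anti-PD-1 tumours against 124 ± 24.6 CPM in IgG2a tumours (SD, 8 tumours each), and its log2 fold change was 0.18 ± 0.12 (SE, edgeR adjusted p = 0.482).

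Slc7a6os lies on chromosome 8 (106200717 to 106210935, minus strand) and has 1 transcript in the tables. It had the largest fold change and the largest spread of the 6. Its level was 34 at the lowest, 46.1 at the median and 80.6 CPM at the highest in anti-PD-1 tumours, against 24.7, 32.0 and 40.7 CPM in IgG2a tumours. Anti-PD-1 replicates 2, 3 and 4 lay inside the IgG2a range, and anti-PD-1 replicate 6 stood far above the next tumour, which had 52.5 CPM. In TPM anti-PD-1 replicate 6 did not stand apart, with 43.0 TPM against 47.5 and 44.3 TPM in anti-PD-1 replicates 5 and 7. As for Thoc1, the 2 units differ only by a scale per tumour. The means were 47.6 ± 15 CPM in anti-PD-1 tumours against 32.9 ± 4.77 CPM in IgG2a tumours (SD, 8 tumours each), and the log2 fold change was 0.54 ± 0.16 (SE, 95% interval 0.19 to 0.88), and 0.39 without anti-PD-1 replicate 6.

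Slc7a6os and Prmt7, a protein arginine methyltransferase gene, start at adjacent bases on opposite strands. The 60 bases around the starts (chr8:106210906-106210965, minus strand) are shown as the third and tightest of these head-to-head pairs, and do not hold CCGGAAG. The longer promoter window of Slc7a6os, the kind over which the share of 8.86% was counted, holds it 1 time, at position -214 from the start. The windows of Rabggta and Lxn do not hold it, and Thoc1 has no window. None of the other motifs searched lies in the printed stretches.
Slc7a6os/Prmt7: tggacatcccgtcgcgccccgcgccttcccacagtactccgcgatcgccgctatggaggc
Prmt7 had a mean of 61.0 ± 6.50 CPM in anti-PD-1 tumours against 57.3 ± 11.2 CPM in IgG2a tumours (SD, 8 tumours each), and its log2 fold change was 0.09 ± 0.12 (SE, edgeR adjusted p = 0.723). With group means removed, Slc7a6os and Prmt7 had a Pearson r of 0.40 over 16 tumours (within-group permutation p = 0.064, adjusted 0.193; Spearman rho 0.27, p = 0.311), which was -0.02 without anti-PD-1 replicate 6 and IgG2a replicate 7, the tumours farthest from the median.

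**Figure D2:**
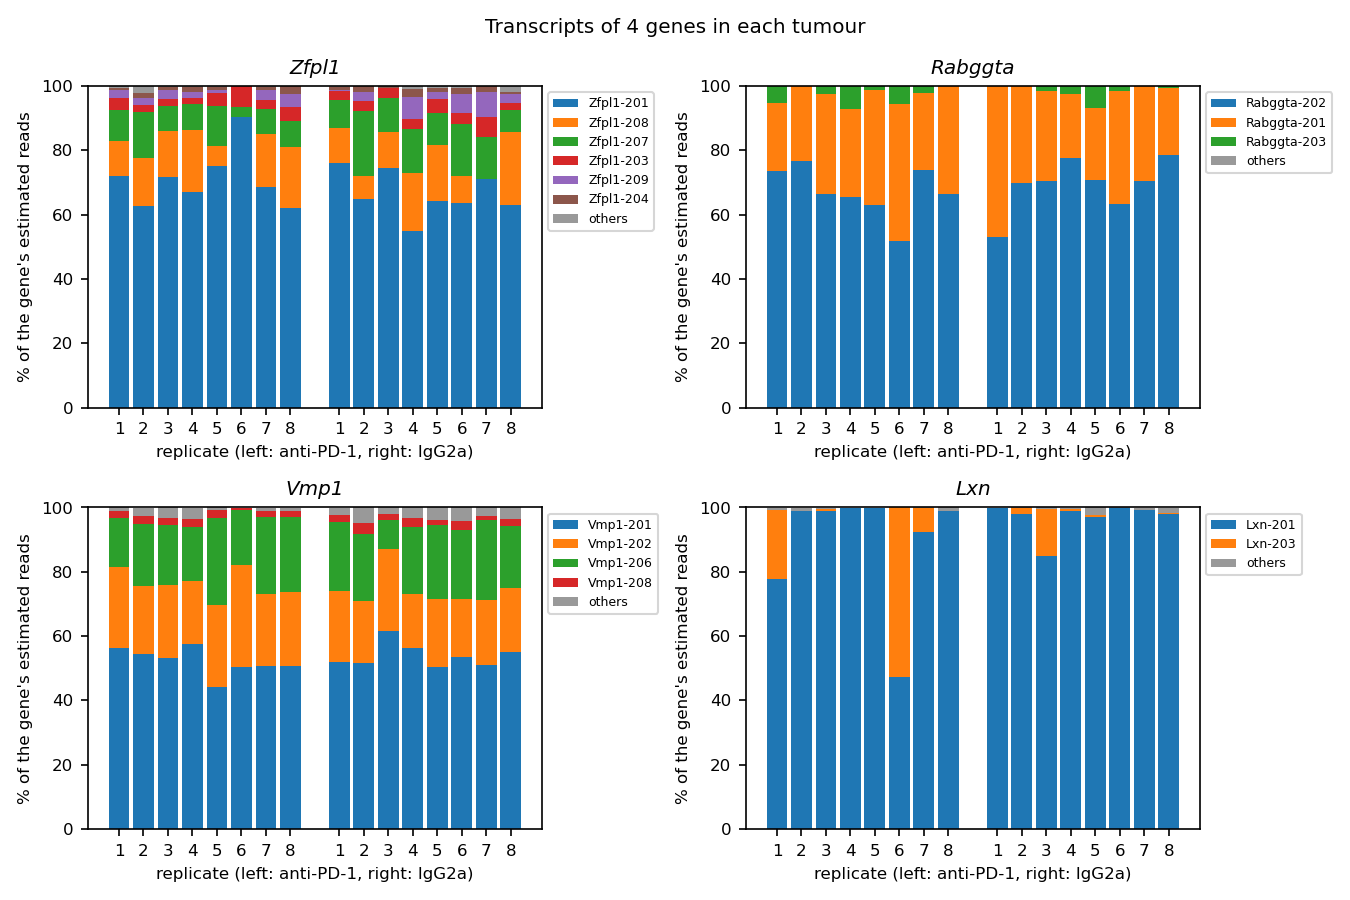
Share of each gene's estimated reads (percent, stacked bars) given to each transcript of Zfpl1, Rabggta, Vmp1 and Lxn in the 8 anti-PD-1 tumours (left) and the 8 IgG2a tumours (right) of each panel. Shares are alike in most tumours, and anti-PD-1 replicate 6 stands apart with 90.3% Zfpl1-201 and 47.4% Lxn-201.

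The share of each transcript within its gene was not used to choose the genes, and was tested. Of 25 transcripts of the 6 genes, 16 had enough reads in a gene with another such transcript, 6 of Zfpl1, 3 of Rabggta and 7 of Vmp1. None of the 16 passed an adjusted p of 0.05 by edgeR's diffSpliceDGE, which called 11 of 32938 transcripts in all (0.0334%). In simulated data diffSpliceDGE missed the usage changes set in, so its result cannot decide whether usage of the 16 differed. None of the 16 passed by limma on the ratio of a transcript to its gene's other transcripts, a test added after the data were seen. That test called 0% of all transcripts and had 7.55% at an unadjusted p under 0.05. Its power for changes smaller than the large ones simulated was not checked, so it cannot exclude them. Vmp1-204, with a log2 ratio of -2.56, was the only 1 of the 16 under 0.05 unadjusted in either test (limma adjusted p = 0.594, edgeR diffSpliceDGE adjusted p = 1).

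A small spread, on which a p-value also depends, goes with the choice of 4 of the 6 genes. The spread within groups, as the SD of log2 CPM, stood at percentile 1.36 of all genes for Zfpl1, 1.36 for Lxn, 2.27 for Vmp1 and 2.56 for Rabggta, and at 15.2 for Thoc1 and 32.4 for Slc7a6os. Zfpl1, Rabggta, Vmp1 and Lxn are among 1342 genes with an SE of 0.1 or less. Their median log2 fold change was 0.01, and their 95th percentile 0.17. Of the 1342, 8 reached the smallest estimate of the 6, these 4 included, and 2 lay as far below 0. Among all 16154 genes, with larger errors, 2333 reached that estimate and 4482 lay as far below 0. These counts use the values by which the 6 were chosen, so nothing is read from them.

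**Figure D3:**
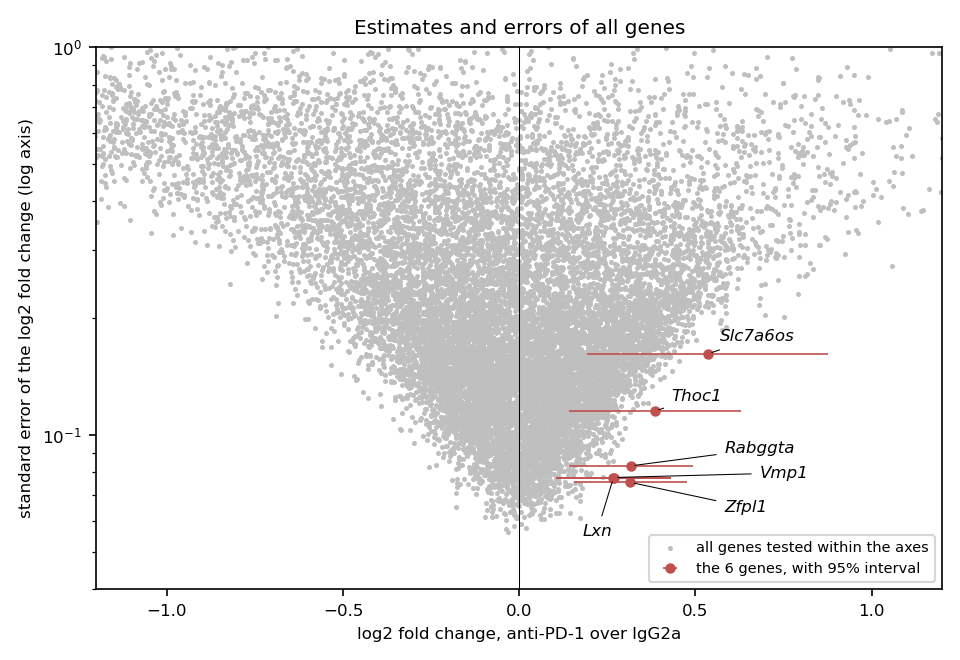
Log2 fold change of anti-PD-1 over IgG2a (horizontal axis) and its standard error (vertical, log axis) for genes tested, in grey, and the 6 genes, in red with 95% intervals. Zfpl1, Rabggta, Vmp1 and Lxn sit at the right edge of the narrow base of the cloud, at errors of 0.08, and Slc7a6os higher up, at 0.16.

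Length bias was followed with a length index, which ranks genes by the length of their transcripts and correlates that rank with how far the tumour lay from each gene's median level. A negative index means that short transcripts were relatively high. Its mean was -0.12 ± 0.22 in anti-PD-1 tumours against 0.13 ± 0.26 in IgG2a tumours (SD, 8 tumours each), a difference of -0.26 (two-sided exact permutation p = 0.055, adjusted 0.497 over 9 measures), and was lowest, at -0.47, in anti-PD-1 replicate 6. The transcripts of the 6 genes, weighted by reads, measured 1091 bases for Lxn, 1150 for Zfpl1, 1525 for Slc7a6os, 1851 for Vmp1, 2055 for Rabggta and 3855 for Thoc1.

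Over both groups together, Slc7a6os followed the length index more closely than the other 5 did. With group means removed, its Pearson r with the index was -0.67 (within-group permutation p = 0.004, adjusted 0.108 over 30 relations; Spearman rho -0.69, p = 0.005, adjusted 0.137), so it did not pass the adjustment. It was -0.80 within anti-PD-1 and -0.61 within IgG2a (n = 8 each), and -0.61 over both without the 2 tumours farthest from the median. Thoc1, the longest of the 6, had r = -0.48 (permutation p = 0.066, adjusted 0.431; Spearman rho -0.50, p = 0.051), and -0.40 without those 2. Zfpl1 had -0.30, and Rabggta, Vmp1 and Lxn had -0.09, -0.10 and -0.04. The r values did not follow the order of transcript length, as Lxn, the shortest of the 6, had the weakest. For Rabggta the groups went opposite ways, with -0.89 in anti-PD-1 tumours and 0.43 in IgG2a tumours.

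**Figure D4:**
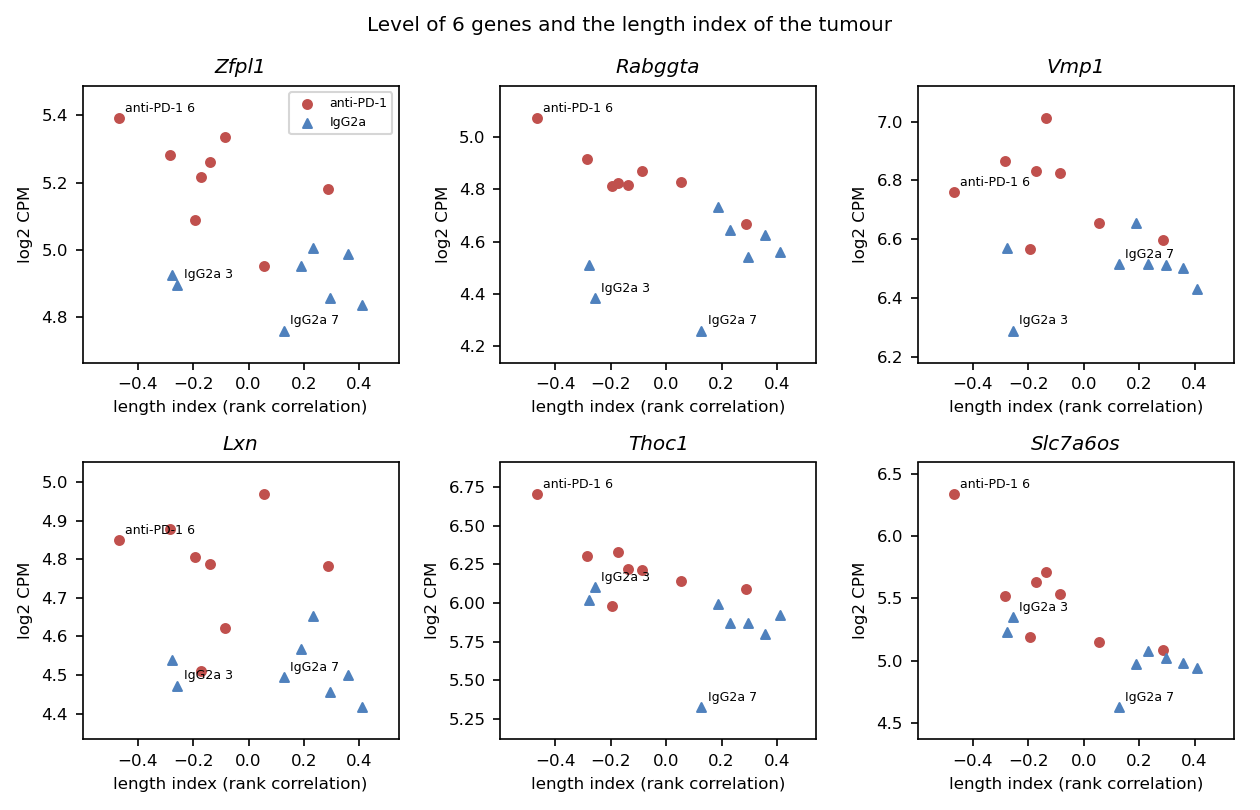
Level of each gene (log2 CPM, vertical) against the length index of the tumour (horizontal) for 8 anti-PD-1 tumours (circles) and 8 IgG2a tumours (triangles). Slc7a6os descends along the index in both groups, with r of -0.80 and -0.61, while Lxn does not, with an r of -0.04 over both.

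With the length index as a covariate, the log2 fold change was 0.27 ± 0.15 (SE) for Slc7a6os and 0.26 ± 0.12 for Thoc1, and 0.28 ± 0.08, 0.30 ± 0.09, 0.25 ± 0.09 and 0.26 ± 0.08 for Zfpl1, Rabggta, Vmp1 and Lxn. A different correction, an offset per tumour fitted on each gene's length, gave another order. It left 0.14 ± 0.09 for Zfpl1 and 0.10 ± 0.11 for Lxn, the shortest of the 6, with 0.19 ± 0.08 for Vmp1, 0.25 ± 0.08 for Rabggta and 0.39 ± 0.11 for Slc7a6os, and gave 0.49 ± 0.16 for Thoc1, the longest. The part of length bias in the differences was not tested beyond these values.

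Gene-level TPM sets reads per base, which gives short transcripts more weight within a gene, and was used without TMM factors. It gave smaller differences, also for Thoc1 and Slc7a6os, where 1 transcript leaves nothing to weigh within the gene. Transcript lengths were the same in all tumours, so for these 2 genes CPM and TPM differ only by a scale per tumour. Why that scale differed between tumours was not tested. On log2(TPM + 1), limma gave 0.072 ± 0.15 (SE) for Vmp1, 0.12 ± 0.14 for Zfpl1, 0.18 ± 0.12 for Rabggta, 0.18 ± 0.10 for Lxn, 0.26 ± 0.12 for Thoc1 and 0.37 ± 0.12 for Slc7a6os. The gene levels in TPM were 139 ± 27.7 in anti-PD-1 tumours and 131 ± 20.9 in IgG2a tumours for Vmp1, and 47.7 ± 9.23 in anti-PD-1 tumours and 43.4 ± 6.81 in IgG2a tumours for Zfpl1 (SD, 8 tumours each). For Thoc1 and Slc7a6os, with 1 transcript each, anti-PD-1 levels of 22.5 ± 2.27 and 38.7 ± 6.49 TPM stood against IgG2a levels of 18.8 ± 2.88 and 29.6 ± 3.77 TPM.

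**Figure D5:**
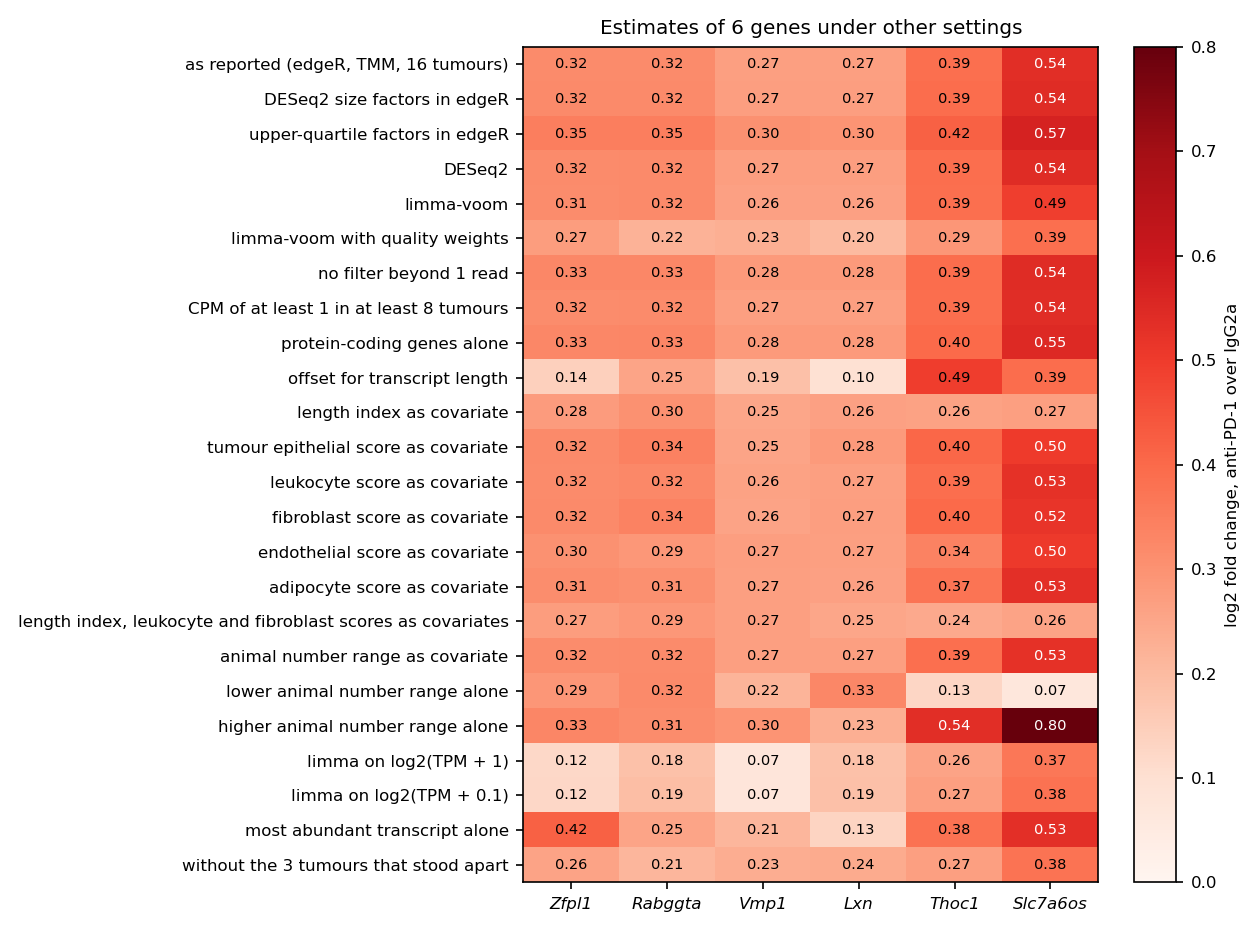
Log2 fold change of anti-PD-1 over IgG2a for the 6 genes (columns) under the reported fit (top) and other settings (rows); darker red is larger. All values are above 0, the lowest being 0.072 for Vmp1 on log2(TPM + 1) and 0.067 for Slc7a6os in the lower block of animal numbers.

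The make-up of the tumours was followed with marker scores, the mean log2 CPM of a list. None of 8 scores passed when anti-PD-1 was set against IgG2a, the smallest exact permutation p (two-sided) being 0.195 (adjusted 0.876), for erythroid genes. Leukocyte scores were 6.65 ± 0.49 in anti-PD-1 tumours against 6.63 ± 0.65 in IgG2a tumours, and fibroblast scores 6.37 ± 0.67 and 6.16 ± 1.17 in that order (SD, 8 tumours each). With the epithelial, leukocyte, fibroblast, endothelial or adipocyte score as a covariate, the log2 fold change was 0.30 to 0.32 for Zfpl1, 0.29 to 0.34 for Rabggta, 0.25 to 0.27 for Vmp1, 0.26 to 0.28 for Lxn, 0.34 to 0.40 for Thoc1 and 0.50 to 0.53 for Slc7a6os. With the length index, leukocyte and fibroblast scores together it was 0.24 for Thoc1, 0.26 for Slc7a6os and 0.25 to 0.29 for the other 4.

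Within groups, none of the 24 relations of the 6 genes to the epithelial, leukocyte, fibroblast and endothelial scores passed the adjustment over both groups together. Some passed within 1 group alone, with a different r in the other group. Vmp1 was higher with a higher leukocyte score across anti-PD-1 tumours (r = 0.93, exact permutation p = 0.001, adjusted 0.027), where IgG2a tumours had r = -0.10 (exact permutation p = 0.780, adjusted 0.807; n = 8 each). Zfpl1 had r = 0.67 with the leukocyte score in anti-PD-1 tumours (exact permutation p = 0.066, adjusted 0.257) and -0.91 in IgG2a tumours (exact permutation p = 0.001, adjusted 0.015), and -0.84 there without IgG2a replicate 7. Rabggta had r = 0.29 with the fibroblast score in anti-PD-1 tumours (exact permutation p = 0.467, adjusted 0.637) and -0.93 in IgG2a tumours (exact permutation p = 0.001, adjusted 0.015), and -0.85 there without replicate 7. With the epithelial score Vmp1 had r = 0.89 in anti-PD-1 tumours (exact permutation p = 0.004, adjusted 0.044) and -0.27 in IgG2a tumours (exact permutation p = 0.460, adjusted 0.601). Zfpl1 and Rabggta each had -0.90 with it in IgG2a tumours (exact permutation p = 0.002, adjusted 0.015 each), and -0.82 and -0.78 there without replicate 7. In anti-PD-1 tumours Zfpl1 and Rabggta had 0.62 and 0.42 (exact permutation, adjusted 0.325 and 0.511). The difference between groups in these relations was not tested. Over both groups, the strongest of the 24 was Rabggta with the endothelial score (r = -0.64, permutation p = 0.016, adjusted 0.241; Spearman rho -0.57, p = 0.023, adjusted 0.297), which was -0.33 without IgG2a replicate 7 and anti-PD-1 replicate 5. Without those 2 tumours the fibroblast score had r = 0.66 with Thoc1 (permutation, adjusted 0.016) and 0.61 with Slc7a6os (permutation, adjusted 0.019). Over all 16 tumours these were -0.25 and 0.11.

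Thoc1 and Slc7a6os differed between 2 blocks of animal numbers, a difference that was not tested. The lower block gave 3 tumours per group. In it Slc7a6os had 45.8, 34 and 36.5 CPM under anti-PD-1 and 37.5, 32.5 and 40.7 CPM under IgG2a, which overlap, and a log2 fold change of 0.067 ± 0.17 (SE). Thoc1 had 79.1, 68.1 and 63.1 CPM under anti-PD-1 and 64.7, 58.5 and 68.7 CPM under IgG2a, a log2 fold change of 0.13 ± 0.14. In the higher block, with 5 tumours per group, the values were 0.80 ± 0.20 for Slc7a6os and 0.54 ± 0.16 for Thoc1. The other 4 genes gave 0.29, 0.32, 0.22 and 0.33 in the lower block and 0.33, 0.31, 0.30 and 0.23 in the higher block, for Zfpl1, Rabggta, Vmp1 and Lxn. What the blocks of numbers stand for is not given in the labels.

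The 6 genes did not all vary together. With group means removed, 5 of 15 pairs passed an adjusted permutation p of 0.05. The closest was Thoc1 with Slc7a6os (Pearson r = 0.86, adjusted p = 0.001; Spearman rho 0.76, adjusted p = 0.011), which was 0.75 without the 2 tumours farthest from the median of Thoc1. Zfpl1 was in 3 of the others, with r = 0.71 to Slc7a6os, 0.60 to Thoc1 and 0.59 to Rabggta (adjusted p = 0.041 each; Spearman rho 0.62, 0.43 and 0.70), and 0.63, 0.51 and 0.48 without the 2 tumours farthest from its median. Rabggta with Thoc1, at 0.65 (adjusted p = 0.041; Spearman rho 0.47), was -0.07 without anti-PD-1 replicate 6 and IgG2a replicate 7. Lxn was in none of the 5, its r with the other 5 genes being -0.13 to 0.25. Without anti-PD-1 replicate 6 and IgG2a replicates 3 and 7, 0 of 15 pairs passed, and Thoc1 with Slc7a6os had r = 0.70 (adjusted p = 0.103).

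Other genes followed single members more closely still. Among 11093 protein-coding genes, and by Pearson r of group-centred log2 CPM over 16 tumours, Thoc1 was most like Birc5 (0.97), Mrto4 (0.97) and Orc6 (0.97), of which Birc5 and Orc6 act in cell division and DNA replication. Slc7a6os was most like Psmg3 (0.95), Cmc2 (0.94) and Med10 (0.94). Rabggta was most like Ier3 (0.90), Bcl10 (0.89) and Esd (0.89), and Zfpl1 most like Tmem161b (0.82), Mcpt4 (0.81) and Spp1 (0.80). Vmp1 was most like Adra2a (0.80), Pla2g4a (0.80) and Acsbg1 (0.78), and Lxn most like Cdkn1a (0.76), Zfp780b (0.73) and Pbx2 (0.71). These are the highest of many values and have no test. Without the 3 tumours set apart, they were 0.64 to 0.88.

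Other genes of the same pathways were read from the same edgeR fit, and 0 of 89 tested passed an adjusted p of 0.05. Of all 16154 genes, 6962 were estimated higher and 9192 lower under anti-PD-1, with a median log2 fold change of -0.05. Of 14 other genes of the THO complex and mRNA export, 10 were estimated higher and 4 lower under anti-PD-1, with a median log2 fold change of 0.18. Nxf1, the main mRNA export receptor, had a mean of 121 ± 5.85 CPM in anti-PD-1 tumours against 107 ± 6.31 CPM in IgG2a tumours (SD, 8 tumours each), and its log2 fold change was 0.17 ± 0.06 (SE, edgeR adjusted p = 0.434). Of 18 other genes of RNA polymerase II and its assembly, the machinery Slc7a6os serves, 15 were estimated higher and 3 lower, with a median of 0.30. Its subunits Polr2c and Polr2f had 0.35 and 0.53 (edgeR adjusted p = 0.434 each), and in the lower block of animal numbers -0.0077 and -0.14. The 3 genes of this list estimated lower were Polr2a, Polr2b and Rpap1. The counts and medians of these lists come from the fit without a length correction, and the part of length bias in them was not tested.

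Partners of Rabggta, Zfpl1 and Lxn were estimated on both sides of 0. Of 11 other genes of Rab prenylation 6 were estimated higher and 5 lower, with a median of 0.01. Rabggtb, the beta subunit that pairs with Rabggta, had a mean of 80.4 ± 31.5 CPM in anti-PD-1 tumours against 61.8 ± 16.2 CPM in IgG2a tumours (SD, 8 tumours each), and its log2 fold change was 0.38 ± 0.21 (SE, edgeR adjusted p = 0.438), with a larger spread than Rabggta. Of 10 other cis-Golgi tethering genes 3 were higher and 7 lower, with a median of -0.06. Of 4 tested genes of the latexin family and carboxypeptidases 2 were higher and 2 lower.

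Autophagosome genes other than Vmp1 were near all genes in their estimates. Of 32 tested, 12 were estimated higher and 20 lower, with a median of -0.06, against 9192 of all 16154 genes lower and a median of -0.05. The 4 with an unadjusted p under 0.05 were all lower, against 7.9% of all genes lower at that threshold. Among them are Ulk1 and Ulk2, kinases that start autophagy, and Pik3r4, a subunit of the lipid kinase complex that acts next. Ulk1 had a mean of 31.7 ± 6.94 CPM in anti-PD-1 tumours against 42.5 ± 10.4 CPM in IgG2a tumours (SD, 8 tumours each), and its log2 fold change was -0.42 ± 0.16 (SE, edgeR adjusted p = 0.434). Ulk2 had -0.46 ± 0.18 and Pik3r4 -0.34 ± 0.14, with the same adjusted p. Vmp1, at 0.27, lay on the other side of 0 from these genes, and none of them passed the adjusted test.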

How the data were processed

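Bulk poly(A) RNA of 16 tumours was used, 8 per antibody group, each from a mouse with its own animal number. Per the labels' protocols, RNA with an integrity number above 5 was made into non-directional libraries. The deposited tables hold, per the file headers, estimated counts per transcript, often not whole, and TPM scaled per tumour by the authors. The submitters' processing notes name GRCm38, edgeR and limma; the quantifier is not given in the sources used here. Effective lengths were the same in all tumours, so fragment length was not fitted per tumour.

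Transcripts were matched to GENCODE vM21 (GRCm38), which placed 114200 of 115088 in 47311 genes; 94.2% of matched transcripts had the same length there, and Thoc1-201, Slc7a6os-201, Rabggta-201 and Rabggta-202 did not. Coordinates and overlaps are those of vM21. Estimated counts were summed per gene, rounded, filtered with filterByExpr (minimum count 10, total 15), scaled by TMM and fitted with edgeR 4.0.16 (R 4.3.3, robust quasi-likelihood, Benjamini-Hochberg over 16154 genes). Transcript usage was tested with edgeR's diffSpliceDGE, and with limma 3.58.1 on log2 ratios (pseudocount 0.5). All 3 tests were checked on simulated data, where diffSpliceDGE missed the usage set in. The ratio test, which found it, was therefore added after the data were seen. The usage changes set in were large, and a gene's transcripts shared most of the simulated spread between tumours. Power for smaller changes was not checked. Scores and correlations use log2 CPM (prior count 2) with 100000 within-group permutations, or all permutations within 1 group, and Benjamini-Hochberg adjustment per family; all are two-sided. Alternatives were other scalings, filters, tools (DESeq2 1.42.0), covariates, TPM with pseudocounts 1 and 0.1, and omitted tumours. Promoter windows run from 250 bases before to 50 after a start, and 5 of the 6 genes have one; motifs were searched on both strands.

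The 6 genes, the lists and the 3 tumours set apart were chosen with earlier results of these data known. Named beside the 6 are genes that overlap or face them, those of the 3 genes of smallest p in each pathway list that had an unadjusted p under 0.05, and Rabggtb (a limit set after their values were seen), and the 3 most correlated genes of each. At 1186 reads or more per gene and tumour, counting error is small beside the spread between tumours.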

Additional observations from a re-analysis of the deposited data

Results flagged for a closer look

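In groups of 8 tumours, single values far from the others for the spread of their group were sought for the 6 genes and 9 tumour measures, and chance alone would mark about 1 group in 20. They were found in 10 of 30 groups, 3 of them among the 12 groups of the 6 genes. Thoc1 was highest, at 104 CPM, in anti-PD-1 replicate 6 and lowest, at 40.0 CPM, in IgG2a replicate 7, and Slc7a6os was highest, at 80.6 CPM, in anti-PD-1 replicate 6. In TPM anti-PD-1 replicate 6 was the highest for neither gene, with 19.7 TPM for Thoc1 and 43.0 TPM for Slc7a6os. For both genes CPM and TPM differ only by a scale per tumour, so TPM adds no separate evidence. IgG2a replicate 7 stood apart in its mean log2 CPM of epithelial (5.50), leukocyte (7.98), endothelial (7.22), erythroid (10.5) and proliferation genes (5.90, the lowest). Anti-PD-1 replicate 5 was highest of its group in adipocyte genes (4.01), and IgG2a replicate 3 in skeletal muscle genes (11.5).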

How the results depend on the processing

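All 6 log2 fold changes stayed above 0 in the 39 alternatives run for each. Those that moved by more than the spread between tumours were Zfpl1 (0.14 with the length offset, 0.12 on log2(TPM + 1) and 0.12 on log2(TPM + 0.1)), Rabggta (0.18 on log2(TPM + 1)), Vmp1 (0.072 on each TPM scale), Lxn (0.10 with the length offset, 0.13 on its most abundant transcript), and in the lower block of animal numbers Thoc1 (0.13) and Slc7a6os (0.067). Slc7a6os also fell, from 0.54 to 0.27 with the length index and 0.26 with 3 covariates. That shift was smaller than its large spread between tumours. Leaving out 1 tumour gave 0.29 to 0.35 for Zfpl1, 0.28 to 0.35 for Rabggta, 0.23 to 0.30 for Vmp1, 0.24 to 0.30 for Lxn, 0.31 to 0.42 for Thoc1 and 0.39 to 0.59 for Slc7a6os. Without the 3 tumours set apart they were 0.26, 0.21, 0.23, 0.24, 0.27 and 0.38. The cause of these shifts was not tested. DESeq2 called 4 of 27933 genes, none of the 6, and every other gene test called 0. Usage calls over all genes were 11 by diffSpliceDGE, 9 to 94 without 1 tumour (94 without IgG2a replicate 3, 21, 25 and 25 without anti-PD-1 replicates 2, 3 and 4, 27 without IgG2a replicate 7), 124 without the 3 tumours, 1 among transcripts of at least 5% of their gene, 244 by limma diffSplice, and 0 by the ratio test (4 without the 3 tumours), with none in the 6 genes. Relations to the scores passed in 0 of 30 cases, in 2 without the 2 farthest tumours (Thoc1 and Slc7a6os with the fibroblast score), in 3 within anti-PD-1 (all of Vmp1) and in 4 within IgG2a; pairs passed in 5 of 15 cases, 2 by Spearman, 0 without the 3 tumours and 9 on log2(TPM + 1).

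Signs turned in results that did not pass. In the lower block of animal numbers Cdca5 was -0.10, Gm28374, which overlaps Zfpl1, 0.53, Ptrh2 -0.20, Gfm1 -0.16, Prmt7 -0.11, Sarnp -0.012, Rabggtb -0.065, Polr2c -0.0077 and Polr2f -0.14. On the most abundant transcript Cdca5 was -0.058, Usp14 -0.099 and Nxf1 -0.033. With the length index Ptrh2 was -0.032, and with 3 covariates Ptrh2 was -0.082, Gfm1 -0.017 and Prmt7 -0.014. Gfm1 was -0.026 on both TPM scales. Without the 3 tumours Cdca5 was -0.038. Score differences turned to -0.017 (epithelial) and -0.14 (leukocyte) on TPM, and without the 3 tumours to 0.20 (endothelial), 0.96 (adipocyte) and 1.44 (skeletal muscle). Without 1 tumour Cdca5 ranged from -0.0099 to 0.19, Gfm1 from -0.0020 to 0.13, and the score differences from -0.099 to 0.21 (leukocyte), -0.52 to 0.055 (endothelial), -1.04 to 0.54 (adipocyte) and -0.69 to 1.44 (skeletal muscle). No paired analysis was possible because replicate numbers follow accession order and pair no mice.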
